A study of Homo sapiens with 14 samples.

Results

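Cytosolic ribosomal protein genes encode the protein components of the ribosome that translates nuclear mRNAs, and they were taken here as every gene whose symbol is RPS, RPL, RPSA or RPLP followed by the standard numbering. The rule left out the RPS6K kinases, the mitochondrial ribosomal proteins and pseudogenes. It found 85 symbols in each of the deposited tables. These symbols stood for 92 identifiers among 17810 genes in the table of the engineered cells and for 85 identifiers among 19143 genes in the table of the parental cells. After the filter on low counts, 80 of 13803 genes tested in the engineered cells and 84 of 14470 genes tested in the parental cells were ribosomal protein genes.

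Ribosomes consist of a small subunit, which holds the decoding site, and a large subunit, which holds the peptidyl transferase centre, and each subunit is assembled in the nucleolus from ribosomal RNA and ribosomal proteins. Most ribosomal protein mRNAs begin with a cytosine followed by a run of pyrimidines, the 5′ terminal oligopyrimidine (TOP) motif, through which mTORC1 signalling and the RNA-binding protein LARP1 control their translation. MYC proteins are well known activators of ribosome production, and neuroblastomas with amplified MYCN are known for large nucleoli and high protein synthesis.

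All libraries came from CHP-134, an established MYCN-amplified human neuroblastoma cell line, as ribosomal RNA-depleted total RNA. In the first experiment, CHP-134 cells engineered with a doxycycline-inducible lentiviral vector expressed either EGFP (n = 3) or OmoMYC (n = 3), a dominant inhibitor made from the dimerisation domain of MYC, and both groups received 1 μg/ml doxycycline for 3 days. EGFP and OmoMYC were carried by separately engineered cells, so the line and the induced protein cannot be told apart. In the second experiment, parental CHP-134 cells, which carry no degradable protein, received 500 nM of the degrader dTAG47 (n = 4) or matched DMSO (n = 4) for 18 h, as a control for effects of the compound itself. The total count per library ranged from 28060817 to 38358128 in the engineered cells and from 40861430 to 53451641 in the parental cells, of which 4.53% to 5.10% were ribosomal protein reads in the engineered cells. MYC, the gene from which OmoMYC derives, had 16 to 20 counts in the EGFP libraries and 15040 to 20295 counts in the OmoMYC libraries, in the direction of the labels. The neuroblastoma markers GATA3 and HAND2 were abundant in every library, GATA3 at 236 to 338 counts per 1000000 counts of the library (CPM), whereas TH and DBH stayed at or below 1.41 CPM. The summed level of 9 markers of blood, epithelial and fibroblast cells was 4.53 to 5.85 CPM in 7 parental libraries and 12.3 CPM in dTAG47 replicate 2, which alone held 202 KRT8, 55 KRT19, 46 KRT18 and 60 DSP counts against at most 4 of each in the other parental libraries. Results of the parental comparison are therefore given with and without that library. In the engineered cells 7 such markers summed to 20.2 to 26.7 CPM with EGFP and 30.9 to 38.9 CPM with OmoMYC, nearly all of it COL1A1, and its part in the results was not tested. Because RNA was extracted from whole cultures and counts were scaled to the library total, a lower share of ribosomal protein mRNA and a change in RNA per cell cannot be told apart.

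The start sites of a chosen set of genes named in the results are shown first, because the TOP motif is defined by the first transcribed bases. Each window holds the 20 bases before the annotated start and the 10 bases after it, from RefSeq on GRCh38.p14, in the direction of transcription, and capitals mark the uninterrupted pyrimidine run that begins with C at the start.
RPL22L1: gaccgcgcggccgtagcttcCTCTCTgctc
RPL22: ctgcgtagttcgctcacctcCCTTTCTaac
RPL39: gctcgttcttccgccagcttCCCTCCTCTT
RPS27A: gggcctgcgcggcgttcttcCTTTTCgatc
RPL41: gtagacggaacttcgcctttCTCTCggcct
RPL34: ctggcaaaggcttttttcttCCTCTTCCgg
RPS21: tgccgggtgactagctgcttCCTTTCTCTC
RPL28: tcgcctcgcccctcgccttcCTCTTTCCgt
RPL18: cgcccaccccagcccgttctCTCTTTCCgg
RPS6: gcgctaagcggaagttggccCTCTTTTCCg
RPL11: tcggccggaagctccgctttCTCTTCCTgc
The windows lie at chr3:170870186-170870215 (RPL22L1, minus strand), chr1:6199586-6199615 (RPL22, minus), chrX:119791621-119791650 (RPL39, minus), chr2:55232668-55232697 (RPS27A, plus) and chr12:56116613-56116642 (RPL41, plus). RPL34 is at chr4:108620556-108620585 (plus), RPS21 at chr20:62387083-62387112 (plus), RPL28 at chr19:55385912-55385941 (plus), RPL18 at chr19:48619169-48619198 (minus), RPS6 at chr9:19380227-19380256 (minus) and RPL11 at chr1:23691786-23691815 (plus). RPS27A has 3 annotated starts, and RPL34 and RPL11 have 2 each, of which the start with the longest pyrimidine run is shown. All 11 begin with a pyrimidine run, including the genes that fell most (RPL22L1, RPL39, RPS27A) and the pair that rose (RPL28, RPL18) with OmoMYC. Because genes and starts were selected, this count is not a result. RPS7, RPS29 and RPL6 also fell with OmoMYC and lack a start with C followed by at least 4 pyrimidines.

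A start with C followed by at least 4 pyrimidines was found in 47 of the 67 ribosomal protein genes whose start was available (70.1%), against 5.14% of 27305 genes and 6 of 69 mitochondrial ribosomal protein genes (8.7%). The paralogues RPL26L1, RPL7L1 and RPS27L, minor or tissue-restricted relatives of ribosomal proteins, lacked such a start, and so did RPS28, whose window holds an E-box (CACGTG, the site bound by MYC and MAX, in capitals), whereas the capitals for RPL7L1 and RPS27L mark CCGGAAG, an ETS family motif.
RPS28: ggctctccccgaagCACGTGactcctctcc
RPL26L1: caggcagtcttccaggggtcggcgaacgaa
RPL7L1: cgcgCCGGAAGtgcggcgccgtagctagga
RPS27L: cCCGGAAGttgatgccgagcgcagatcgct
These windows lie at chr19:8321476-8321505 (RPS28, plus), chr5:172958709-172958738 (RPL26L1, plus, 1 of 2 starts), chr6:42879596-42879625 (RPL7L1, plus) and chr15:63157468-63157497 (RPS27L, minus). In the 300 bases around the start, searched on both strands, CACGTG was present in 5 of 67 members (7.46%) and 8.77% of all genes, CCGGAAG in 24 (35.8%) and 12.2%, CCGCCATC, the YY1 motif, in 9 (13.4%) and 2.85%, and TATAAA in 6 (8.96%) and 14%. A match is a string of letters and was not taken as a bound site.

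OmoMYC expression was accompanied by a shallow reduction of many ribosomal protein mRNAs, led by the paralogue RPL22L1, with a small group of GC-rich members at or above the level in EGFP cells. Once the trend on GC content and transcript length was removed, the share of members that fell, 44.9%, was near the 40% of all genes. By edgeR's quasi-likelihood test with Benjamini-Hochberg adjustment over all genes, 31 of the 80 tested members fell and 2 rose at an adjusted p below 0.05. These counts are 38.8% and 2.5% of the members, where 25.7% and 27.3% of all genes fell and rose in the same test. Without EGFP replicate 3, the library that moved the count most, 47 members fell (29.9% of all genes). The log2 fold change was below 0 for 60 members and above 0 for 20 (48.9% and 51.1% of all genes). The groups did not overlap for 34 members that were lower and 7 that were higher with OmoMYC, where 30.3% and 32% of all genes were separated in this way. The median log2 fold change was -0.15 over the members and 0.01 over all genes. Where a signed value stands alone after a gene's levels below, it is the log2 fold change between the groups.

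**Figure D1:**
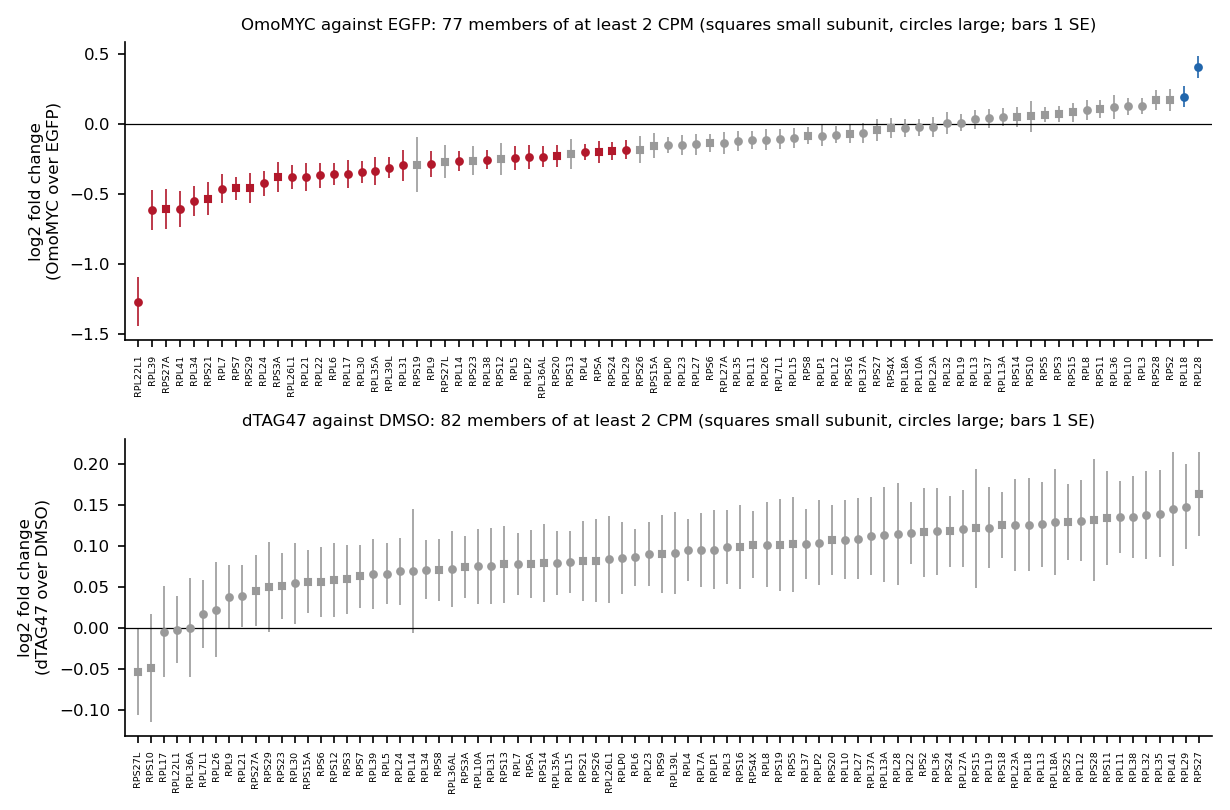
Log2 fold change of each ribosomal protein gene with a mean of at least 2 CPM, in order, for OmoMYC over EGFP (top) and dTAG47 over DMSO (bottom); squares are small and circles large subunit genes, bars are 1 standard error, red and blue mark genes called lower and higher at an adjusted p below 0.05, and grey those not called. RPL22L1 lies alone at -1.27 in the top panel and close to 0 in the bottom panel, where no gene was called in this fit, which has no term for the replicate number, and nearly all points lie slightly above 0.

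Of 51 large subunit members 23 fell and 2 rose, with a median of -0.15. Of 29 small subunit members 8 fell and none rose, with a median of -0.18, and the share that fell was near the 25.7% of all genes. With the trend on GC content and transcript length removed, 26 of 50 large and 9 of 28 small subunit members fell, where 40% of all genes did. Without EGFP replicate 3, 31 large and 16 small subunit members fell (29.9% of all genes), and without EGFP replicate 1, 26 and 9 did (27.8%). The level summed over all members was 50851, 51299 and 46545 CPM in EGFP replicates 1 to 3 and 47102, 46341 and 44880 CPM in OmoMYC replicates 1 to 3. EGFP replicate 3 lay below OmoMYC replicate 1, so the groups overlapped. The means were 49565 ± 2625 (SD, n = 3) and 46108 ± 1129 (SD, n = 3), a difference of -6.98%, with -7.68% for the large and -5.64% for the small subunit. When each library was left out in turn, the difference over all members ranged from -11.7%, without EGFP replicate 3, to -6.84%. Mitochondrial ribosomal proteins, which build the separate ribosome of mitochondria and are not members, had 34 of 74 genes lower and 3 higher, and their sum went from 4279 ± 109 to 3756 ± 71.0 CPM (SD, n = 3) without overlap, a difference of -12.2%. The difference between the cytosolic and the mitochondrial set was not tested.

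**Figure D2:**
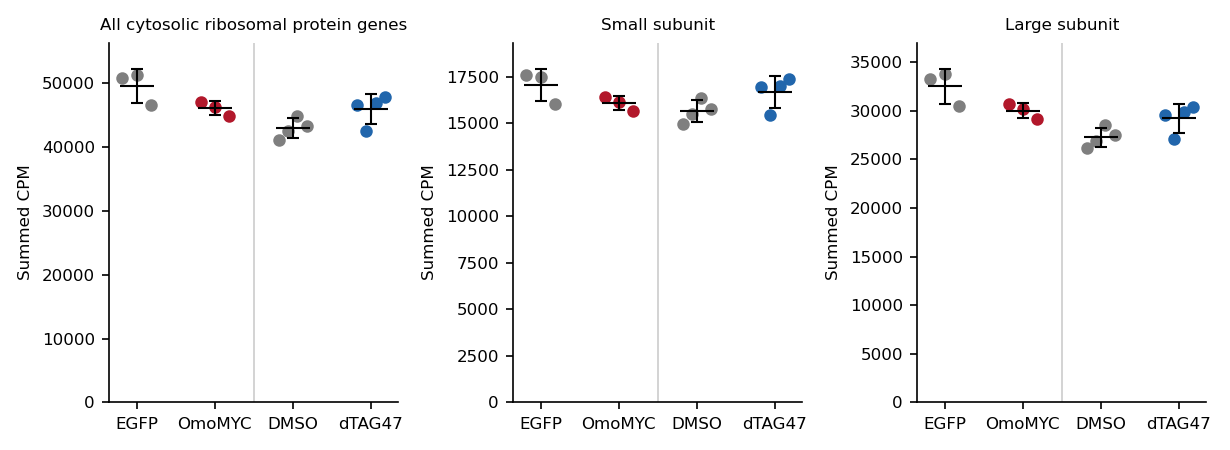
Summed level (CPM) of all cytosolic ribosomal protein genes, of the small subunit and of the large subunit in each library; points are libraries, horizontal marks are means, bars are 1 SD, and the vertical line parts experiments that were scaled separately. EGFP replicate 3 (46545 CPM) lies within the OmoMYC range and dTAG47 replicate 2 (42532 CPM) within the DMSO range. Sums of the EGFP and OmoMYC libraries hold almost no reads of RPS9, RPS18, RPS25 and RPL7A.

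RPL22L1, a paralogue of RPL22 that can take its place in the large subunit and that also binds RNA outside the ribosome, moved most. Its level was 136, 93.5 and 75.3 CPM with EGFP and 42.7, 45.8 and 38.2 CPM with OmoMYC (hg19 chr3:170582664-170587997, minus strand). The highest OmoMYC library was well below the lowest EGFP library, although the EGFP libraries themselves were spread widely. The log2 fold change was -1.27 ± 0.18 (SE, adjusted p = 0.000231, edgeR), and it ranged from -1.47 to -1.01 when each library was left out in turn. RPL22 itself, whose product binds the Epstein-Barr virus EBER1 RNA as well as 28S rRNA, was at 190, 176 and 149 CPM with EGFP and 135, 137 and 128 CPM with OmoMYC. It also fell without overlap, by 0.36 on the log2 scale (adjusted p = 0.00632, edgeR). The log2 ratio of RPL22L1 to RPL22 was -0.49, -0.91 and -0.98 with EGFP and -1.66, -1.59 and -1.74 with OmoMYC, lower in every OmoMYC library than in any EGFP library. That difference of -0.87 had p = 0.1 in a two-sided exact permutation test (adjusted p = 0.15 over 6 paralogue pairs), the smallest value that 3 against 3 libraries allow.

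The other members with the lowest fold changes were RPL39, RPS27A, RPL41 and RPL34. RPL39, a short basic protein that lines the peptide exit tunnel, had 352, 269 and 229 CPM with EGFP and 192, 202 and 162 CPM with OmoMYC, a log2 fold change of -0.61 (adjusted p = 0.00429, edgeR). RPS27A, which is made as a fusion with ubiquitin and so supplies both, had 642, 489 and 389 CPM with EGFP and 336, 347 and 317 CPM with OmoMYC (-0.60, adjusted p = 0.00501, edgeR). In both genes EGFP replicate 1 was far above the other EGFP libraries, while all OmoMYC libraries were below all EGFP libraries. RPL41, the smallest ribosomal protein, had 332, 261 and 214 CPM against 180, 180 and 170 CPM (-0.60), and RPL34 had 413, 365 and 295 CPM against 249, 255 and 228 CPM (-0.55). EGFP replicate 1 was again the highest library for RPS21, a small subunit protein, with 661, 527 and 452 CPM against 383, 397 and 355 CPM (-0.53). RPL7, a large subunit protein, had 1122, 981 and 815 CPM against 712, 741 and 669 CPM (-0.46). RPS7, a small subunit protein that can also bind MDM2, was more even among the EGFP libraries, at 822, 797 and 692 CPM against 593, 581 and 511 CPM, with a log2 fold change of -0.46 (adjusted p = 0.00109, edgeR). The remaining 22 members that fell had log2 fold changes between -0.45 (RPS29) and -0.18 (RPL29).

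**Figure D3:**
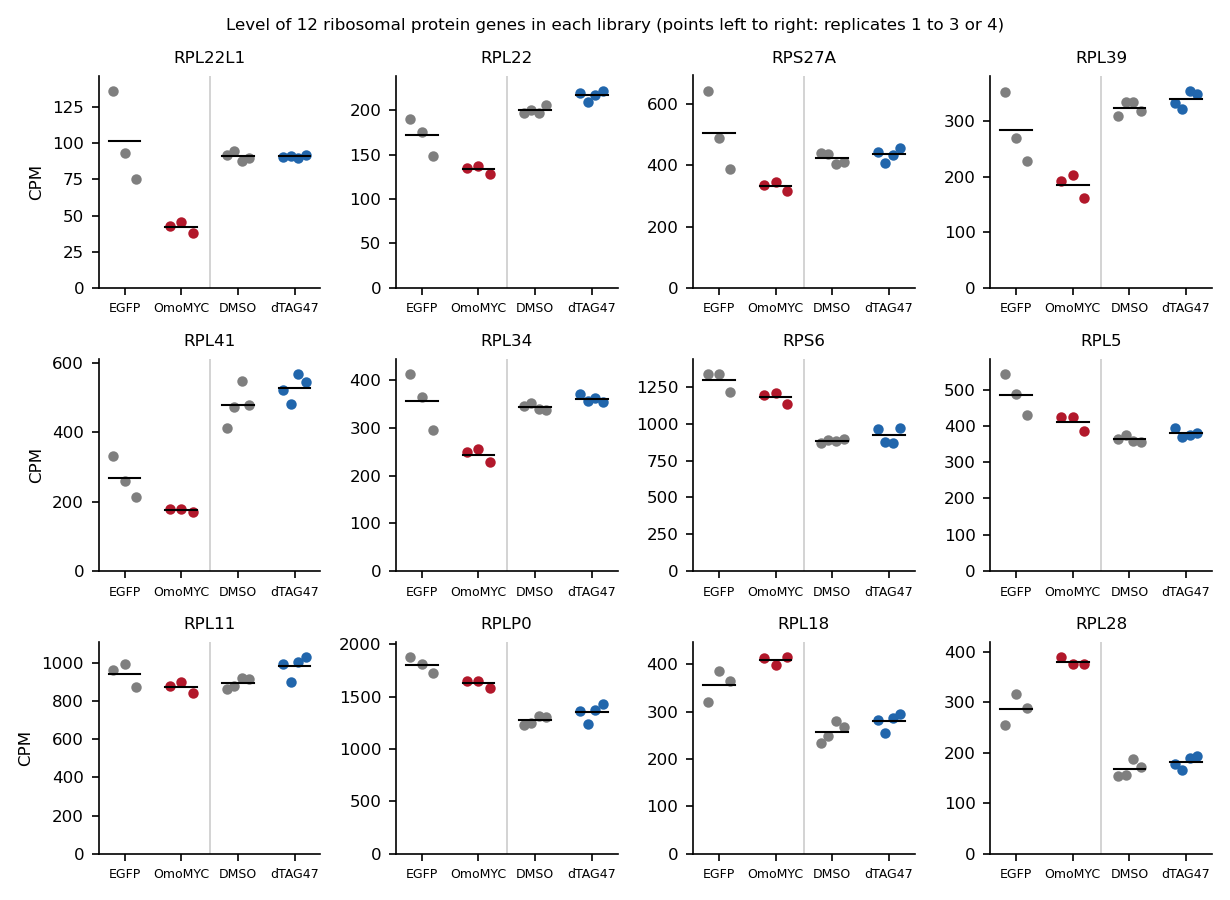
Level (CPM, axes from 0) of 12 ribosomal protein genes in every library, with points in the order of the replicate numbers and black lines at the group means; the vertical line parts the separately scaled experiments. For RPL22L1, RPL39, RPS27A, RPL41 and RPL34 EGFP replicate 1 is the highest library and the OmoMYC libraries lie below all EGFP libraries, whereas RPL28 and RPL18 are higher with OmoMYC.

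RPL5 and RPL11 form the 5S ribonucleoprotein particle with 5S rRNA, which enters the large subunit and, when free, binds MDM2. RPL5 had 542, 488 and 429 CPM with EGFP and 424, 424 and 385 CPM with OmoMYC and fell (-0.24, adjusted p = 0.0353, edgeR). RPL11 had 960, 992 and 871 CPM against 877, 896 and 839 CPM, with overlap, and did not pass the test (-0.11, adjusted p = 0.176, edgeR). Of the stalk proteins that recruit elongation factors, RPLP2 had 615, 553 and 483 CPM against 476, 463 and 464 CPM and fell by 0.23 on the log2 scale (adjusted p = 0.0354, edgeR). RPLP0 had 1876, 1814 and 1724 CPM against 1648, 1652 and 1584 CPM, lower in every OmoMYC library but just outside the threshold (-0.15, adjusted p = 0.0524, edgeR), and RPLP1 overlapped at -0.08. RPS6, the substrate of S6 kinase and the usual readout of mTORC1 activity, had 1337, 1335 and 1214 CPM against 1198, 1209 and 1137 CPM. Its groups did not overlap, yet the difference, -0.13 on the log2 scale, missed the threshold (adjusted p = 0.0969, edgeR). RPSA, which is also known as the laminin receptor, had 515, 449 and 428 CPM against 415, 407 and 392 CPM and passed narrowly (-0.20, adjusted p = 0.0478, edgeR), and the X-linked RPS4X was at -0.03.

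The calls on RPL5, RPSA, RPLP2, RPL36AL, RPS20, RPL31, RPS24, RPL29, RPL9 and RPL35A were lost when at least 1 of the 6 libraries was left out. All 31 fold changes kept their sign, and 21 of the 31 remained called, in each of these fits. Of the 10 such calls, those on RPL5, RPSA and RPLP2 had adjusted p between 0.0353 and 0.0478 with all libraries.

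Among the members that rose, RPL28, a large subunit protein, had 255, 316 and 288 CPM with EGFP and 389, 375 and 376 CPM with OmoMYC, without overlap, at a log2 fold change of 0.41 (adjusted p = 0.00172, edgeR). RPL18 had 321, 385 and 365 CPM against 413, 399 and 415 CPM (0.20, adjusted p = 0.0453, edgeR). That call was kept in 1 of the 6 fits that left out a library, whereas the call on RPL28 was kept in 6. Both calls were lost with GC and length corrected, at 0.07 for RPL28 (adjusted p = 0.295, edgeR) and -0.03 for RPL18. RPS2, RPS28 and RPL3 followed at 0.17, 0.17 and 0.13 without passing the test. RPS2 was held down in EGFP replicate 1, at 1753 CPM against 2156 and 2118 CPM in the other EGFP libraries and 2292, 2212 and 2296 CPM with OmoMYC.

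Of the other paralogues, RPL26L1 had 37.1, 40.1 and 34.7 CPM with EGFP and 29.7, 29.8 and 26.5 CPM with OmoMYC and fell (-0.38, adjusted p = 0.00441, edgeR), while its abundant partner RPL26 was at -0.11 with overlapping groups. The log2 ratio of RPL26L1 to RPL26 was lower in every OmoMYC library, at a difference of -0.27 (two-sided exact permutation p = 0.1, adjusted p = 0.15). RPL39L, a relative of RPL39 best known from the testis, fell by 0.31 on the log2 scale (adjusted p = 0.0073, edgeR), and its log2 ratio to RPL39 differed by 0.29 (exact permutation p = 0.2). RPL7L1 was at -0.11 and uncalled, and its log2 ratio to RPL7 was higher with OmoMYC in every library (0.34, exact permutation p = 0.1, adjusted p = 0.15). RPS27L, which is induced by p53, was at -0.27 and RPS27 at -0.04, both uncalled. RPL36AL fell (-0.23, adjusted p = 0.0242, edgeR), and RPL3L, the relative of RPL3 restricted to heart and skeletal muscle, stayed between 0.91 and 1.55 CPM. Per kilobase of annotated transcript, RPL19 was the most abundant member of the engineered cells at 2630 CPM per kb, the median member had 598 CPM per kb, RPL22 had 74.0 and RPL22L1 37.8, and RPL3L was lowest, at 0.61, of the 76 members with at least 1 CPM and a known length. Annotated lengths ran to 7573 bases for RPL37 and 7136 for RPL14, against 737 for RPL19, so these ranks depend on the transcript chosen. RPS9, RPS18, RPS25 and RPL7A had almost no counts in this table and are not ranked.

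The size of the difference followed base composition. Over 76 members the log2 fold change correlated with the GC content of the transcript (Pearson r = 0.60, Spearman rho = 0.64, across genes of the same 6 libraries, which are not independent replicates), and over 13445 tested genes r was 0.33 and rho 0.49. The 20 members of lowest GC (39.9% to 44.1%) had a median of -0.29 and 13 of them fell, where all genes in that range had a median of -0.20 and 1010 of 2389 fell. The 20 of highest GC (53.6% to 63.6%) had a median of 0.08 with 2 lower and 2 higher, where all genes in that range had a median of 0.26 and 295 of 3868 fell and 1714 rose. Libraries of one group differed along the same axis. The log2 ratio of EGFP replicate 1 to EGFP replicate 3 correlated with GC at r = -0.63 over the members and -0.68 over all genes. The 10 members of lowest GC had 0.70, 0.52 and 0.47 times the summed level of the 10 of highest GC in EGFP replicates 1 to 3 and 0.42, 0.44 and 0.39 times in OmoMYC replicates 1 to 3. EGFP replicate 1 stood apart in this ratio, and EGFP replicate 3 was close to the OmoMYC libraries.

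**Figure D4:**
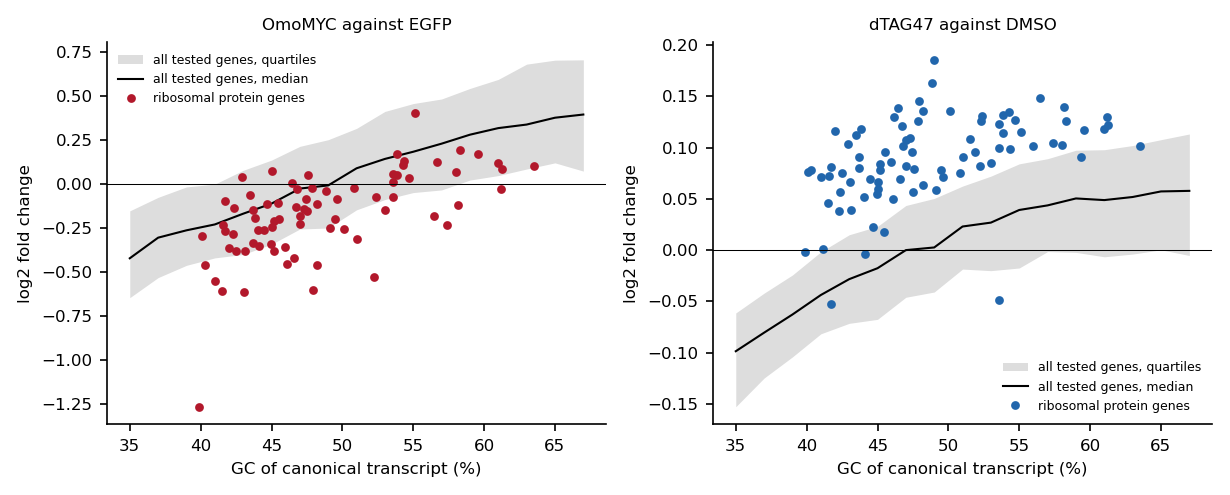
Log2 fold change against the GC content (%) of the canonical transcript for ribosomal protein genes (coloured points), with the median (line) and quartiles (grey band) of all tested genes in bins of 2% GC. With OmoMYC, 64 of 76 members lie below the median of all genes at their GC, and with dTAG47, 81 of 83 lie above it.

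Set against all genes of like GC, in bins of 2%, 64 of 76 members lay below the median of their bin and 12 above. Of these members 20 lay below its lower quartile and 0 above its upper quartile, where 25% of all genes lie beyond each. The median distance from the bin median was -0.13. RPL22L1 was 1.00 below its bin, RPS21 0.67 below and RPL41 0.58 below, and RPL28 was 0.22 above. When the trend on GC and transcript length was removed from every library, 35 of 78 members fell and 3 rose, where 40% and 22.2% of all genes did, and the medians were -0.12 for members and -0.08 for all genes. RPL22L1 was then at -0.97 (adjusted p = 0.00789, edgeR). RPL39 (-0.32, adjusted p = 0.0772) and RPS27A (-0.28, adjusted p = 0.0997) were no longer called, and neither was RPL28 (0.07, adjusted p = 0.295). Only 20 of the 31 members that fell without the correction were also called lower with it, and neither of the members that rose was called higher, and the 44.9% of members that fell compare with 40% of all genes. RPS6 turned to 0.10 and RPS2 to -0.10, both called, and RPL36AL turned to 0.08, uncalled.

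Genes around the ribosome were counted from fixed lists, to be read against the 25.7% of all genes that fell and the 27.3% that rose. Of 16 other mRNAs known to carry a TOP motif, 9 fell and 2 rose, with a median of -0.22. NPM1, the nucleolar chaperone of ribosome assembly, fell by 0.56 on the log2 scale (adjusted p = 0.000156, edgeR), the translation initiation factor subunit EIF3E was at -0.58 and the nascent chain binding protein NACA at -0.37, whereas the elongation factors EEF2 (0.37) and EEF1D (0.29) rose. Of 10 escorts of newly made ribosomal proteins, 4 fell and 3 rose: AAMP, the human relative of the yeast escort of RPL10, was at 0.53, PRMT3, which methylates RPS2, at -0.58, and BCCIP, an escort of RPL23, at -0.40. Of 6 genes of the 5S particle and p53 axis, the large subunit assembly factor BRIX1 (-0.72), the p53 inhibitor MDM4 (-0.33) and the p53 target CDKN1A (-0.34) fell. Of 14 genes of mTORC1 and its ribosomal protein mRNA regulators, 6 rose and 3 fell, among them the mTORC1 inhibitors TSC2 (0.53) and TSC1 (0.44), and LARP4, which protects the poly(A) tails of ribosomal protein mRNAs (-0.49). When GC and length were corrected, 40% of all genes were lower and 22.2% higher, with a median of -0.08. The mTORC1 list then turned from a median of 0.21 to -0.10, with 7 lower and 3 higher. The other TOP mRNAs went to -0.10, with 10 lower and 1 higher, and the escorts to -0.09, with 4 lower and 1 higher. FAU, which encodes RPS30 as a fusion, rose (0.20, adjusted p = 0.0411, edgeR), a call that was lost without EGFP replicate 1, without EGFP replicate 3 and with GC and length corrected, and GNB2L1, the scaffold RACK1, did not pass. Among the ribosomal protein genes, those with the TOP-type start had a median of -0.19 (42 tested, 18 lower, 2 higher) and those without it -0.16 (20 tested, 8 lower). The 5 with CACGTG near the start had a median of 0.01 and none was called.

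Some members could not be read in the engineered cells. RPS9, RPS18 and RPS25 appeared there under 4, 2 and 2 identifiers, each with at most 8 counts, whereas in the parental table RPS18 had 38357 to 55760 counts, RPS9 11465 to 15858 and RPS25 14523 to 21258 under single identifiers. RPL7A and RPL36A were at 0 or 1 counts in the engineered cells. RPS19, whose mutations cause Diamond-Blackfan anaemia, had 110 to 182 counts against 21335 to 28648, and RPL10 had 5792 to 8583 against 31367 to 42541. The second identifier of RPL10 held 4 to 19 counts, with a log2 fold change of -0.94 that did not pass. RPL17 and RPS10 overlap readthrough genes, so their counts are uncertain in both tables. The tested identifiers of RPS19, RPL10, RPL17 and RPS10 are still part of the counts above, RPL17 among the 31 that fell and RPS19 among the 5 with CACGTG. The read share and summed levels of the engineered cells hold almost nothing from RPS9, RPS18, RPS25 and RPL7A and little from RPS19.

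With dTAG47, nearly all ribosomal protein genes of parental cells lay slightly above the DMSO level. Whether any passed the threshold depended on the libraries and terms in the fit. With the replicate numbers as a block, 21 of the 84 tested members rose (2.11% of all genes). With a term for replicates 1 and 2 against 3 and 4 instead, 31 rose (2.58%). With all libraries and neither term, none was called by edgeR's quasi-likelihood test with Benjamini-Hochberg adjustment, by DESeq2 or by limma-voom. In that edgeR fit 0.159% of all genes were called. The log2 fold change was above 0 for 79 of 84 members, against 49.2% of all genes, and 30 members were higher at an unadjusted p below 0.05, against 3.88% of all genes. The median was 0.09 over the members and -0.00 over all genes. Among members of at least 2 CPM, values ranged from -0.05 (RPS27L) to 0.16 (RPS27). The small subunit (32 tested) had a median of 0.08 and the large subunit (52 tested) of 0.10. Of 76 mitochondrial ribosomal protein genes 55 were above 0, with a median of 0.03, and 0 were higher at an unadjusted p below 0.05. Without dTAG47 replicate 2, 21 of these 76 were higher at that threshold (10.6% of all genes), and with the block 14 were (9.99%). Within replicates 3 and 4 alone, 3 of them were called higher and 2 lower (2.93% and 3.24% of all genes).

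The summed level was 41155, 42446, 44872 and 43291 CPM in DMSO replicates 1 to 4 and 46523, 42532, 46888 and 47761 CPM in dTAG47 replicates 1 to 4. All dTAG47 libraries but replicate 2 were above all DMSO libraries. The means were 42941 ± 1559 and 45926 ± 2321 (SD, n = 4), a difference of 6.95%, with 7.15% for the large subunit, 6.61% for the small subunit and 1.66% for the mitochondrial ribosomal proteins. dTAG47 replicate 2 is the library that held the keratin counts.

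RPS27, a zinc finger protein of the small subunit, had 371, 391, 417 and 422 CPM with DMSO and 445, 410, 473 and 466 CPM with dTAG47 (0.16, adjusted p = 0.605, edgeR). RPL29 had 315, 326, 349 and 346 CPM against 373, 333, 383 and 392 CPM (0.15), and RPL11 had 860, 879, 918 and 915 CPM against 993, 899, 1005 and 1028 CPM (0.14). In these 3 genes dTAG47 replicate 2 fell among the DMSO libraries and the other 3 were above them. The groups did not overlap for 5 members, all higher with dTAG47 (1.87% of all genes were separated in that direction). These were RPL34, RPS3A, RPL6, RPL22 and RPS18. RPS18, a small subunit head protein, had 922, 928, 936 and 947 CPM against 1020, 950, 1026 and 1077 CPM (0.13), and RPL22 had 197, 200, 197 and 206 CPM against 220, 209, 217 and 221 CPM (0.12, adjusted p = 0.643, edgeR).

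RPL22L1, the member that moved most with OmoMYC, had 91.6, 94.7, 87.9 and 89.5 CPM with DMSO and 90.5, 91.3, 89.8 and 91.6 CPM with dTAG47. The groups overlapped throughout, at a log2 fold change of -0.00 ± 0.04 (SE). Its log2 ratio to RPL22 differed by -0.12 (two-sided exact permutation p = 0.0571, adjusted p = 0.3 over 7 pairs), and that of RPS27L to RPS27 by -0.22 (exact permutation p = 0.0857, adjusted p = 0.3). Of the other members with the lowest fold changes with OmoMYC, RPL39 was at 0.07, RPS27A at 0.05, RPL41 at 0.15 and RPL34 at 0.07 here, all uncalled. RPS6 had 871, 892, 886 and 894 CPM against 966, 879, 867 and 974 CPM (0.06), and RPLP0 had 1230, 1246, 1316 and 1302 CPM against 1362, 1238, 1374 and 1431 CPM (0.09). In both, dTAG47 replicates 1 and 4 were above all DMSO libraries and replicate 2 was within the DMSO range. Replicate 3 was above all DMSO libraries for RPLP0 and below them for RPS6. Per kilobase of transcript, RPS2 (1823 CPM per kb), RPL19 (1793) and RPS18 (1777) were the most abundant members in the parental cells, with a median of 496.

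Without dTAG47 replicate 2, 6 members were called higher (0.358% of all genes): RPS25, RPL11, RPL29, RPL38, RPS27 and RPS18, with log2 fold changes of 0.16 to 0.20 and adjusted p of 0.0345 to 0.0438 (edgeR). The groups were then separated for 47 members, all higher (8.66% of all genes), 67 were higher at an unadjusted p below 0.05 (10.6%), and the summed level differed by 9.59%. Of the 21 members that rose with the replicate numbers as a block, 16 were of the large and 5 of the small subunit, and 63 members were higher at an unadjusted p below 0.05 (9.99%). The lowest adjusted p of the blocked fit belonged to RPS27 (0.16, adjusted p = 0.00448, edgeR), followed by RPL35, RPL29 and RPL32 at 0.14 to 0.15 and RPL11 at 0.13. Removing the trend on GC and length in the same blocked fit left 3 members that rose (0.73% of all genes), RPL22 (0.15, adjusted p = 0.00446, edgeR), RPL32 and RPL37. Within replicates 3 and 4 alone 41 members rose (2.93%), and within replicates 1 and 2 alone none was called higher (0.0276% of all genes) and 73 of 84 were above 0.

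The difference between groups followed GC content here too, with r = 0.46 and rho = 0.57 over 83 members and r = 0.32 and rho = 0.47 over 14116 genes, across genes of the same 8 libraries. In bins of like GC, 81 of 83 members lay above the median of all genes, 76 above the upper quartile and 2 below the median, at a median distance of 0.09. The members share these libraries and are not independent observations. Their median log2 deviation from the DMSO mean ranged from -0.06 to 0.06 among DMSO libraries and from -0.01 to 0.15 among dTAG47 libraries. The 20 members of lowest GC had a median of 0.07 where all genes of that GC had -0.04, and the 20 of highest GC 0.12 where all genes had 0.05. With GC and length corrected, 81 of 84 members were above 0 at a median of 0.08, against 0.01 over all genes, and none was called higher (0.588% of all genes).

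**Figure D5:**
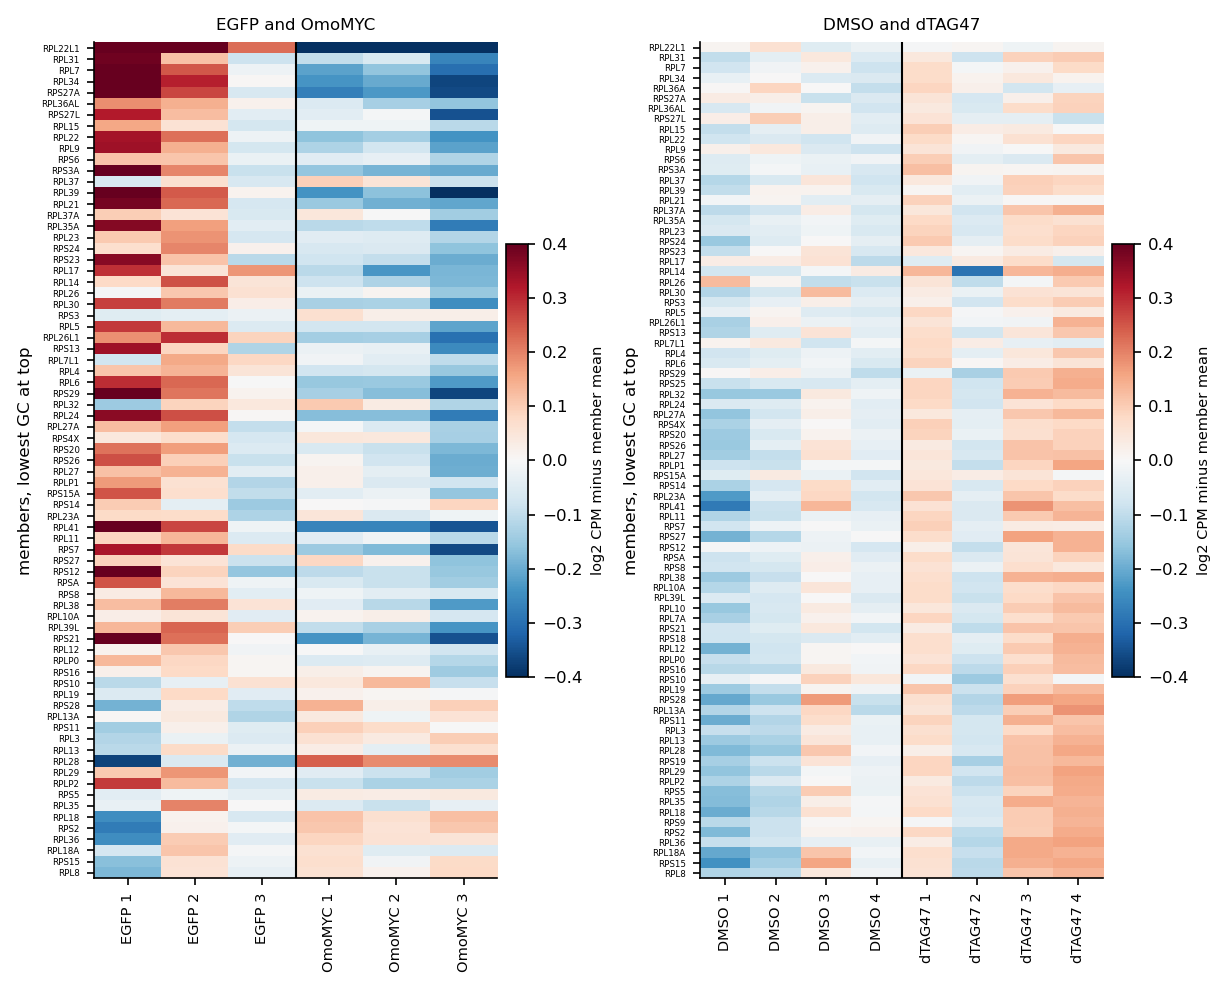
Level of each ribosomal protein gene with a mean of at least 2 CPM in each library as log2 CPM minus the mean of that gene over the libraries of its experiment, with genes in order of GC content (lowest at top), colours limited to 0.4 either way and a black line between the groups. EGFP replicate 1 is highest for most genes of low GC and lowest for several of high GC, including RPL28, and dTAG47 replicate 2 is lower than the other dTAG47 libraries for most genes, most of all for RPL14.

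No gene of the other lists was called with dTAG47 by edgeR with all libraries and no block or set term. With the block, where 2.11% of all genes were higher and 2.5% lower, 2 of the other TOP mRNAs were higher. So was 1 gene whose product is bound or fused to ribosomal proteins. In that fit 2 mTORC1 genes were higher and 1 lower, and 1 gene of the 5S particle and p53 axis was lower. Within replicates 3 and 4 alone 4 of the other TOP mRNAs were higher (2.93% of all genes). The other TOP mRNAs had a median of 0.04 (14 of 16 above 0, 3 at an unadjusted p below 0.05), the escorts 0.02, mTORC1 and its regulators 0.02 and the 5S particle and p53 axis 0.00. NACA, EIF3H and EEF1A1 were higher in every dTAG47 library, at log2 fold changes of 0.11, 0.08 and 0.06, and NPM1, which fell with OmoMYC, was at 0.00. GNB2L1 was at 0.13 and FAU at 0.07, near the ribosomal protein genes.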

How the data were processed

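Gene counts were used as deposited. Per the labels and the study's methods, the authors used Cutadapt for trimming, STAR on hg19 for alignment, featureCounts for the gene counts and DESeq2 for testing. The annotation, strand setting and treatment of reads that match several genes are not given in the sources used here. The deposited counts of each table were scaled by the trimmed mean of M values and tested separately with edgeR 4.0.16 (robust quasi-likelihood test, filterByExpr defaults, Benjamini-Hochberg adjustment over all genes tested, threshold 0.05) in R 4.3.3. DESeq2 1.42.0 and voom of limma 3.58.1 were alternatives, as were other scalings and filters, a block, and removal from each library of a trend on GC and transcript length (natural splines, 5 degrees of freedom each, log2 CPM with a prior count of 2). The fits were tested on simulated data. CPM are counts per 1000000 of the scaled library total. Groups came from the sample titles. The study calls its replicates biological, and p-values measure the spread between these libraries only. Same-numbered parental libraries deviated together (r = 0.11, 0.35, 0.32 and 0.44), and their numbers, from the titles, were used as the block. Across the groups, libraries numbered 1 and 2 (r = 0.50 and 0.24) and 3 and 4 (r = 0.44 and 0.33) deviated together about as strongly. These values therefore show sets 1-2 and 3-4 and do not establish pairs by number, which the titles do not state either. No library pair agreed within sampling noise. Starts came from RefSeq and were matched for 67 of 85 symbols. Transcript length and GC content were those of the canonical GENCODE transcript of each gene, which need not be the transcript expressed or counted.

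Named genes were a fixed set (RPS6, RPL5, RPL11, RPS19, the stalk, RPS27A, RPSA, RPS4X, RPL22), all paralogues with an L suffix and their partners, the 5 lowest and 5 highest fold changes of members with at least 1 CPM, called members of the dTAG47 comparison, and the most and least abundant member per kilobase. In the other lists the 3 genes with the lowest adjusted p were named. Members and lists were chosen with earlier results of these data known, and RPS7, RPS21, RPL14, other members named in counts, and the keratins were named after their values were seen. RPL10L was not analysed here, and some items are not reported here.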

Additional observations from a re-analysis of the deposited data

Results flagged for a closer look

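Of 80 groups of 4 parental libraries examined, 3 held a library far from the other 3, where chance gives about 1 in 20 groups. RPL14, a large subunit protein, was at 230 CPM in dTAG47 replicate 2 and at 310, 310 and 313 CPM in the other dTAG47 libraries, against 268 to 289 CPM with DMSO, and its log2 fold change was 0.07 with that library and 0.17 without it. It was added to the genes examined after its values were seen. RPS3A, a small subunit protein, was at 798 CPM in dTAG47 replicate 1 and at 738, 739 and 740 CPM in the others. The log2 ratio of RPL22L1 to RPL22 was -1.20 in dTAG47 replicate 2 and -1.28, -1.27 and -1.27 in the others.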

How the results depend on the processing

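With OmoMYC, the count of ribosomal protein genes that rose (2) was 1 with RLE size factors (26.3% of all genes rose) and with scaling that left out these genes (25.1%). It was also 1 without a filter (22%) and with DESeq2 (26%), and 4 with library size only (28.3%). Leaving out a library gave 22 to 47 lower and 1 to 2 higher, medians of -0.24 to -0.14 and summed differences of -11.7% to -6.84%; the highest count (47, where 29.9% of all genes were lower) came without EGFP replicate 3. Same-numbered engineered libraries deviated together unevenly (r = 0.14, -0.12 and 0.48), and EGFP replicate 1 and OmoMYC replicate 2 had r = 0.43. A replicate block gave 38 lower and 4 higher, where 28% of all genes were lower and 30.7% higher. With GC and length corrected, the sign turned for RPL18 (-0.028), RPS2 (-0.10), RPL3 (-0.030), RPS6 (0.10), RPLP1 (0.0028), RPS4X (0.054), RPL26 (0.11), RPL36AL (0.083) and RPS27 (0.055), and RPS2 (adjusted p = 0.0198) and RPS6 (adjusted p = 0.0166) passed the edgeR test in the turned direction. The median over all genes in that corrected fit was -0.08, and 40% of them were called lower and 22.2% higher. RPS2 lay near that median, and RPL18 and RPL3 lay above it.

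With dTAG47, the count of members that rose (0) was 21 with the replicate block, 31 with a term for replicates 1 and 2 against 3 and 4, 41 within replicates 3 and 4, and 3 with the block and the GC and length correction, an alternative chosen after seeing the data. Leaving out a library gave 0 to 6, medians of 0.07 to 0.13 and summed differences of 5.49% to 9.59%. RPL22L1 turned to 0.052 with GC and length corrected, 0.051 with the block as well and 0.030 within replicates 3 and 4, and ranged from -0.017 to 0.019 without single libraries, and RPS27A was at -0.025 within replicates 1 and 2. The causes were not tested. Over all alternatives for the named genes, 376 values with OmoMYC and 544 with dTAG47 kept their direction and side of the threshold, 31 and 0 lost a call, 19 and 37 gained one and 9 and 7 changed sign. Replicates differed by 2.64 to 42.1 chi-square units per degree of freedom over all genes, above counting error, and depth limits RPL3L (23 to 57 counts).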
